A study of Mus musculus with 20 samples.

Results

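The 8 genes of ganglioside metabolism examined across the 7 sample groups of a mouse neuroblastoma series were Ugcg, St3gal5, St8sia1, St8sia5, B4galnt1, B3galt4, St3gal2 and Neu3. All probe sets annotated to 1 of these symbols alone were taken, which gave 17 of the 45037 probe sets on the array and 8 of the 18193 genes they name. Of these, 16 probe sets and 7 genes passed the filter on low signal. The single probe set of Neu3 did not pass it.

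RNA was measured on 20 arrays. There were 2 tumorsphere cultures and 4 tumors of mice hemizygous for a MYCN transgene. There were 2 tumors of mice homozygous for the transgene with a knockout of Mdk, 4 tumors of homozygous mice with Mdk intact, and 2 ganglion samples of homozygous mice. Wild-type (WT) mice gave 2 neurosphere cultures and 4 ganglion samples. All transgenic samples had a mixed 129+Ter/SvJcl background and all wild-type samples a 129+Ter/SvJcl background, so transgene and background cannot be told apart where these are compared. The labels used here give no age, do not name the promoter of the transgene, and do not say whether the arrays of a group came from separate animals, so each p-value rests on array-to-array spread that could be technical in part. Tumorspheres and neurospheres are floating cultures grown from tumor cells and from neural progenitors.

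Gangliosides are glycolipids that carry sialic acid and sit in the outer leaflet of the plasma membrane, most densely on neurons. They are built in the Golgi by adding 1 sugar at a time to ceramide, and the balance of a few transferases sets which species accumulates. GD2, made by B4galnt1 from the GD3 that St8sia1 produces, is abundant on neuroblastoma cells and is the target of therapeutic antibodies. The arrays measured mRNA only, not the glycolipids.

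The labelled tissues were checked on known markers. Th, the rate-limiting enzyme of catecholamine synthesis, averaged 3212 ± 163 in tumorspheres and 11.9 ± 3.11 in WT neurospheres (SD, n = 2 each). In tissue Th averaged 306 ± 55.7 in homozygous tumors and 2401 ± 750 in WT ganglia (SD, n = 4 each). Prph, a neuronal intermediate filament, lay between 1.78 and 66.0 in hemizygous tumors, against 1440 to 3099 in WT ganglia. In the 2 tumorspheres Prph read 3.59 and 13.2. Dbh, another marker of sympathetic neurons, averaged 66.9 ± 18.2 in tumorspheres (SD, n = 2) and 2208 ± 722 in WT ganglia (SD, n = 4). The progenitor factor Sox2 was 3783 and 3296 in the 2 neurospheres and at most 194.6 on every other array. Nes, another progenitor marker, did not stand out, at 54.5 ± 5.06 in neurospheres (SD, n = 2) and 48.4 ± 10.7 in WT ganglia (SD, n = 4). Against WT ganglia, 6 of 8 progenitor markers were higher in the neurospheres and 1 lower (limma). In the same comparison 15 of 15 neuronal and 7 of 10 glial markers were lower, with 0 higher. In tumorspheres against neurospheres, 13 of 15 neuronal markers were higher and 0 lower, and 7 of 8 progenitor markers were lower and 0 higher. Of 10 glial markers 1 was higher and 4 lower there, so tumorspheres and neurospheres also differ in their lineage markers. Mdk, the knocked-out gene, averaged 39.0 ± 5.004 in knockout tumors (SD, n = 2) and 277 ± 13.9 in homozygous tumors with Mdk intact (SD, n = 4).

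Promoter sequence is shown for the 3 enzymes that open the pathway and have an entry in the RefSeq promoter table of build GRCm38.p6. Each run is the 250 bases before the annotated start, 5′ to 3′ on the strand of the gene. Capitals mark the GC box GGGCGG, the motif of Sp factors, or its reverse complement CCGCCC. The regions are chr4:59189300-59189549 on the plus strand for Ugcg, chr6:72097358-72097607 on the plus strand for St3gal5 and chr6:142964453-142964702 on the minus strand for St8sia1.
Ugcg: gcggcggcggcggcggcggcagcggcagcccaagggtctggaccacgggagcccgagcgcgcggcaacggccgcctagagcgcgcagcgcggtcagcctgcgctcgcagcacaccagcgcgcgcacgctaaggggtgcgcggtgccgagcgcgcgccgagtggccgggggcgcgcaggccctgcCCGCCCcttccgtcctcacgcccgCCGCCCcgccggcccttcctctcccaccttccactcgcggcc
St3gal5: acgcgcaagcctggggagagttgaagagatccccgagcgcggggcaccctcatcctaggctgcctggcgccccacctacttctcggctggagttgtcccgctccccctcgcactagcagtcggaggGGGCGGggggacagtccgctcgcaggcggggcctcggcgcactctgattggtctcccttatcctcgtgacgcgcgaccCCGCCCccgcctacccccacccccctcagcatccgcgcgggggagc
St8sia1: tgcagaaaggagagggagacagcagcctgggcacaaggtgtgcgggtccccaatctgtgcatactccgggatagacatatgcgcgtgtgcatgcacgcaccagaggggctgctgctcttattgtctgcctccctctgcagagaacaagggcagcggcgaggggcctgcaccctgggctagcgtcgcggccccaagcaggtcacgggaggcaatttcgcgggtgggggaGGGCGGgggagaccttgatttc

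The GC box was found 2 times in the promoter of Ugcg, 2 times in that of St3gal5 and 1 time in each of those of St8sia1, B3galt4 and Neu3, counting both strands. It occurs in 32.7% of the 32851 mouse promoters of the same length. The E-box CACGTG, the motif of MYC proteins, was in 0 of these 5 promoters and is in 6.02% of all. No match says only that these letters are not in this window. No promoter was read for St8sia5, B4galnt1 or St3gal2, so the counts do not cover them.

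Each value is the linear intensity of a probe set, which the authors had scaled to the same trimmed mean on every array. Differences are log2 fold changes of intensity + 16, fitted with limma over all 20 arrays, and a gene was called at a Benjamini-Hochberg adjusted p under 0.05 over all 34922 probe sets tested. Each gene was called on its brightest probe set, and other probe sets are given beside it. Levels of different genes cannot be set against each other on this scale. Where all arrays of a group are said to lie above or below those of another, the share of all genes that did so is not given.

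**Figure D1:**
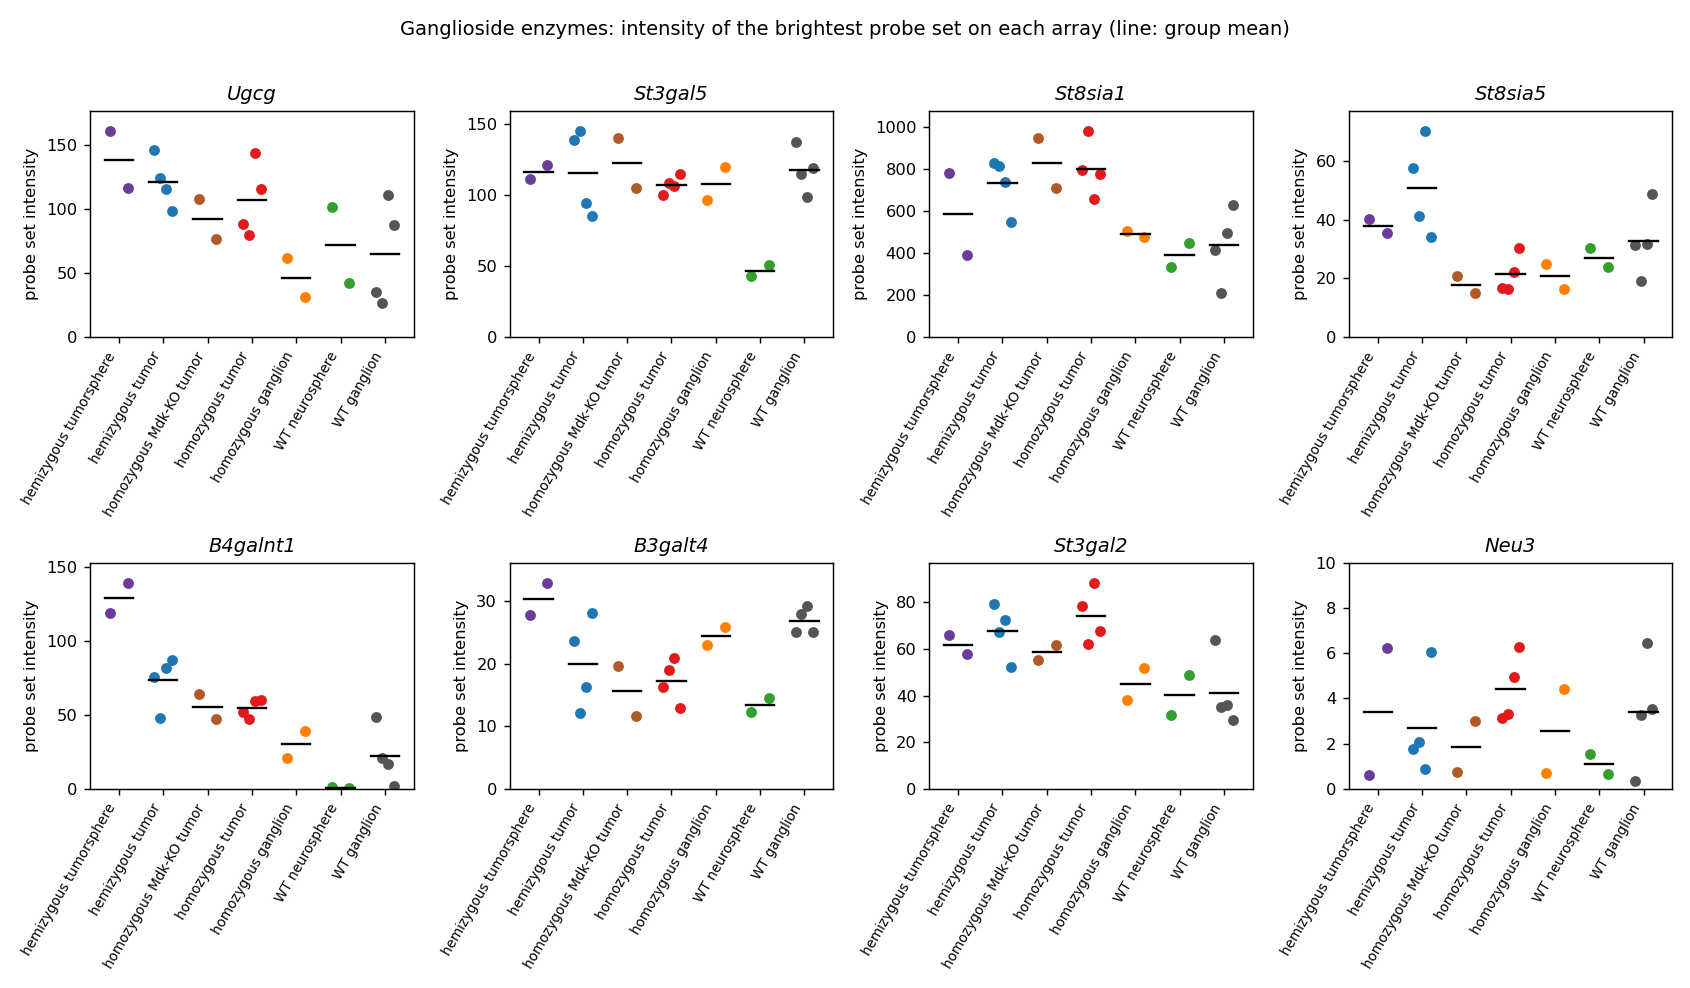
Intensity (linear scale from 0) of the brightest probe set of each of the 8 genes on each of the 20 arrays, by group, with group means as lines. B4galnt1 was highest in the 2 tumorspheres, at 119 and 139, and at 1.29 and 0.589 in the 2 WT neurospheres. Neu3 stayed at or below 6.46 on every array.

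The first committed step is carried by Ugcg, which adds glucose to ceramide. Ugcg read 161 and 116 in tumorspheres and 146, 124, 115 and 98.3 in hemizygous tumors. It read 108 and 76.2 in Mdk-knockout tumors, 88.2, 79.8, 144 and 116 in homozygous tumors, and 61.6 and 31.2 in homozygous ganglia. It read 102 and 42.1 in WT neurospheres and 35.6, 26.8, 111 and 87.2 in WT ganglia. The 10 tumor arrays ran from 76.2 to 146, while the WT ganglia fell into a low pair and a pair within the range of the tumors.

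St3gal5 makes GM3, the root of nearly all brain gangliosides. Its means lay between 107 ± 6.15 in homozygous tumors (SD, n = 4) and 122 ± 25.0 in Mdk-knockout tumors (SD, n = 2) in every group but 1, WT ganglia at 117 ± 16.1 (SD, n = 4) included. In the 2 WT neurospheres it read 42.7 and 50.9, below every other array, the lowest of which was 84.9.

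St8sia1, the GD3 synthase, read 782 and 389.6 in tumorspheres, 826, 812, 737 and 545 in hemizygous tumors, and 944 and 709 in Mdk-knockout tumors. It read 792, 978, 656 and 774 in homozygous tumors and 503 and 477 in homozygous ganglia. It read 334 and 446 in WT neurospheres and 413, 209, 496 and 628 in WT ganglia. Every homozygous tumor lay above every WT ganglion, and 3 of 4 hemizygous tumors did.

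St8sia5 adds further sialic acids to make the more heavily sialylated species. It averaged 37.7 ± 3.42 in tumorspheres (SD, n = 2) and 50.8 ± 16.2 in hemizygous tumors (SD, n = 4). It averaged 17.8 ± 4.01 in Mdk-knockout tumors (SD, n = 2), 21.4 ± 6.52 in homozygous tumors (SD, n = 4) and 20.8 ± 6.06 in homozygous ganglia (SD, n = 2). It averaged 27.1 ± 4.55 in WT neurospheres (SD, n = 2) and 32.7 ± 12.2 in WT ganglia (SD, n = 4). The hemizygous groups were the highest by mean, and the homozygous groups were the lowest.

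B4galnt1 transfers N-acetylgalactosamine to GM3 and GD3 and so makes GM2 and GD2. It read 119 and 139 in tumorspheres, 76.0, 48.0, 82.2 and 87.6 in hemizygous tumors, and 64 and 47.4 in Mdk-knockout tumors. It read 52.3, 47.5, 59.9 and 60.1 in homozygous tumors and 21.1 and 39.2 in homozygous ganglia. It read 1.29 and 0.589 in WT neurospheres and 48.8, 20.8, 16.6 and 2.14 in WT ganglia. By mean the order from the top was tumorspheres, hemizygous tumors, Mdk-knockout tumors, homozygous tumors, homozygous ganglia, WT ganglia and WT neurospheres. The ranges of hemizygous, Mdk-knockout and homozygous tumors overlapped, as did those of homozygous and WT ganglia. On both neurosphere arrays and on WT ganglion 4 its signal was under the 40th percentile, so folds against neurospheres depend on the constant added before the logarithm.

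B3galt4 adds the next galactose, to make GM1 and GD1b. It averaged 30.4 ± 3.62 in tumorspheres (SD, n = 2), 20.05 ± 7.14 in hemizygous tumors (SD, n = 4) and 15.6 ± 5.65 in Mdk-knockout tumors (SD, n = 2). It averaged 17.3 ± 3.47 in homozygous tumors (SD, n = 4) and 24.5 ± 1.98 in homozygous ganglia (SD, n = 2). It averaged 13.4 ± 1.65 in WT neurospheres (SD, n = 2) and 26.9 ± 2.12 in WT ganglia (SD, n = 4). These signals are low: array medians ran from 14.8 to 22.9. WT ganglia were even and above every homozygous tumor.

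St3gal2 caps the terminal galactose of GM1 and GD1b. It averaged 61.9 ± 5.83 in tumorspheres (SD, n = 2), 67.8 ± 11.5 in hemizygous tumors (SD, n = 4) and 58.6 ± 4.33 in Mdk-knockout tumors (SD, n = 2). It averaged 74.1 ± 11.6 in homozygous tumors (SD, n = 4) and 45.1 ± 9.61 in homozygous ganglia (SD, n = 2). It averaged 40.3 ± 12 in WT neurospheres (SD, n = 2) and 41.1 ± 15.4 in WT ganglia (SD, n = 4). The other WT ganglia lay between 29.7 and 36.0, while WT ganglion 1 read 63.9, inside the range of the tumors.

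Neu3, the plasma membrane sialidase that strips sialic acid from gangliosides, lay between 0.329 and 6.46. On 0 of 20 arrays did it exceed the 40th percentile and was not tested.

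In homozygous tumors against WT ganglia, 3 of the 7 tested genes rose and 0 fell. B4galnt1 rose by 1.04 ± 0.27 (log2, SE), or 2.05-fold (limma adjusted p = 0.00399). St8sia1 rose by 0.94 ± 0.27, or 1.91-fold (limma adjusted p = 0.00821). St3gal2 rose by 0.68 ± 0.18, or 1.61-fold (limma adjusted p = 0.00469). Both enzymes of GD2 synthesis were thus among the risers, together with the sialyltransferase that acts on the later species.

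The other 4 genes did not pass. Ugcg differed by 0.72 (adjusted p = 0.0659), St3gal5 by -0.11 (adjusted p = 0.622), St8sia5 by -0.37 (adjusted p = 0.147) and B3galt4 by -0.37 (adjusted p = 0.0588), all from limma. B3galt4 read 12.9 to 20.9 in the tumors and 25.1 to 29.3 in WT ganglia, so its groups did not overlap. The share of all genes separated in this way is not given here, so nothing particular follows for B3galt4. In this comparison 49.9% of the 15139 genes tested were called in either direction, 23.2% higher and 26.7% lower. A count of 3 in 7 is near the share called among all genes, so the count itself says nothing particular about these enzymes. The median log2 fold change was 0.68 over the 7 genes and -0.12 over all genes tested.

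In hemizygous tumors against the same WT ganglia, 4 of 7 genes rose and 0 fell, where 52.4% of all genes tested were called, 26.9% higher and 25.5% lower. B4galnt1 rose by 1.35 ± 0.27 (log2, SE), or 2.55-fold (limma adjusted p = 0.000407). Ugcg rose by 0.89 ± 0.31 (adjusted p = 0.0238), St8sia1 by 0.80 ± 0.27 (adjusted p = 0.0202) and St3gal2 by 0.58 ± 0.18 (adjusted p = 0.0137), all from limma. St8sia5 differed by 0.46 (adjusted p = 0.07), B3galt4 by -0.27 (adjusted p = 0.161) and St3gal5 by -0.04 (adjusted p = 0.859). The median over the 7 genes was 0.58, against -0.05 over all genes tested.

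In Mdk-knockout tumors against WT ganglia, 2 of 7 genes rose and 0 fell, where 39.3% of all genes tested were called, 19.2% higher and 20.2% lower. They were B4galnt1, at 1.05 ± 0.33 (limma adjusted p = 0.0193), and St8sia1, at 0.98 ± 0.33 (limma adjusted p = 0.0273). Leaving out either knockout tumor ended both calls. Without Mdk-knockout tumor 1, B4galnt1 stood at 0.88 (adjusted p = 0.178) and St8sia1 at 0.78 (adjusted p = 0.235). Without Mdk-knockout tumor 2, they stood at 1.21 (adjusted p = 0.0518) and 1.18 (adjusted p = 0.0564).

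All 3 tumor comparisons share the 4 WT ganglia, which did not form 1 even group. For Ugcg and St8sia1 ganglia 1 and 2 were the lowest, and for B4galnt1 and St3gal2 ganglion 1 was the highest. Against WT ganglia 3 and 4 alone, St8sia1 differed by 0.49 (adjusted p = 0.113) in homozygous and by 0.36 (adjusted p = 0.245) in hemizygous tumors, and Ugcg by 0.25 (adjusted p = 0.481) in hemizygous tumors. Against WT ganglia 1 and 2 alone, B4galnt1 differed by 0.53 (adjusted p = 0.0765) and St3gal2 by 0.49 (adjusted p = 0.0639) in homozygous tumors, while Ugcg rose by 1.36 (adjusted p = 0.000816). St3gal2 differed by 0.38 (adjusted p = 0.145) in hemizygous tumors against the same pair. St8sia5 fell by 0.59 (adjusted p = 0.0362) in homozygous tumors against ganglia 3 and 4 alone and rose by 0.68 (adjusted p = 0.0185) in hemizygous tumors against ganglia 1 and 2 alone. In Mdk-knockout tumors St8sia1 differed by 0.54 (adjusted p = 0.143) against ganglia 3 and 4 alone, and B4galnt1 by 0.54 (adjusted p = 0.136) against ganglia 1 and 2 alone. Without the arrays with Acta1, a muscle actin, over 100, St8sia1 differed by 0.39 (adjusted p = 0.28) in homozygous and 0.35 (adjusted p = 0.337) in hemizygous tumors, and Ugcg by 0.27 (adjusted p = 0.486) in hemizygous tumors. That setting also leaves only WT ganglia 3 and 4 as controls, so it is not a separate check on them. The rise of B4galnt1 in hemizygous tumors passed in all 20 alternatives run, between 0.85 and 1.85 where the constant of 16 was kept.

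**Figure D2:**
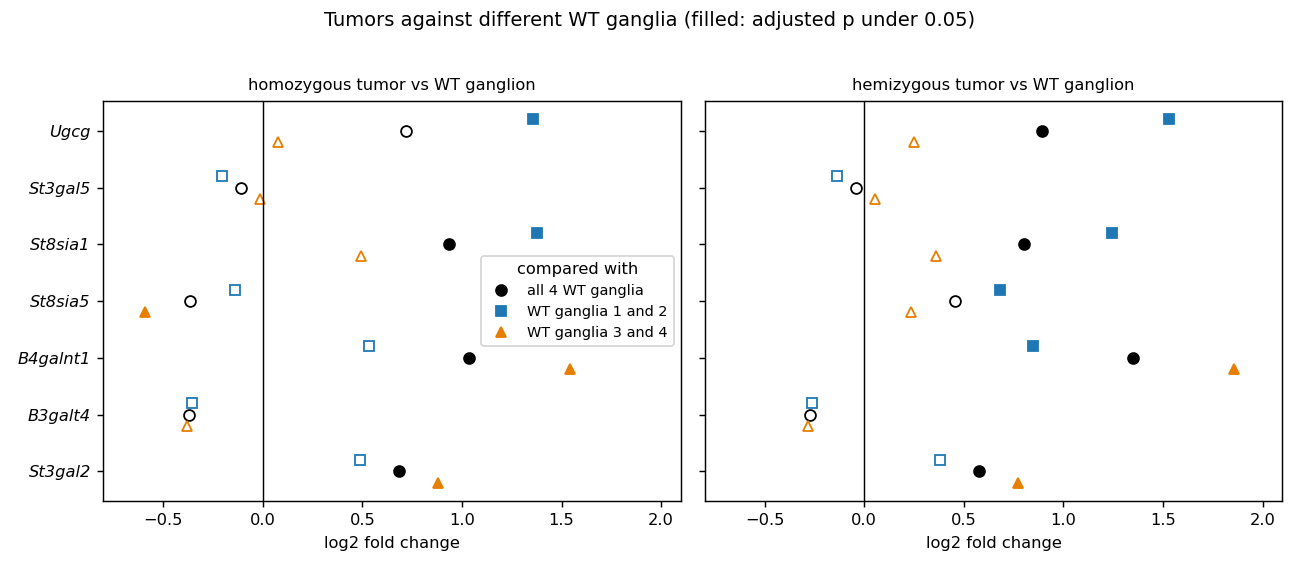
Log2 fold changes of the 7 tested genes in homozygous (left) and hemizygous (right) tumors, computed against all 4 WT ganglia, against WT ganglia 1 and 2, and against WT ganglia 3 and 4. Filled symbols passed an adjusted p of 0.05. B4galnt1 in hemizygous tumors was filled in all 3 settings, while St8sia1 was open against WT ganglia 3 and 4 in both kinds of tumor.

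Single arrays also decided calls in hemizygous tumors. Ugcg no longer passed without WT ganglion 1 (0.72, adjusted p = 0.0783), WT ganglion 2 (0.63, adjusted p = 0.0902) or hemizygous tumor 1 (0.81, adjusted p = 0.0654). St8sia1 no longer passed without WT ganglion 2 (0.50, adjusted p = 0.0824), hemizygous tumor 1 (0.74, adjusted p = 0.0549) or hemizygous tumor 2 (0.75, adjusted p = 0.0524).

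Other measures moved with these comparisons. The summed signal of 10 glial markers was 879 to 1137 in homozygous and 454 to 944 in hemizygous tumors, against 10700 to 12249 in WT ganglia. The summed signal of 15 neuronal markers was 19214 to 21815 in homozygous and 12056 to 14169 in hemizygous tumors, against 27461 to 61680 in WT ganglia. Of 7 fibroblast markers, 6 fell in homozygous and 5 in hemizygous tumors and 1 rose in each, with sums of 4267 to 5061 in homozygous and 2672 to 6424 in hemizygous tumors, against 14756 to 17579 in WT ganglia. All 4 tested liver and plasma markers fell in both. Of 10 macrophage markers, 3 rose and 1 fell in homozygous tumors, and 7 rose and 1 fell in hemizygous tumors. In bulk tissue, fewer cells of a type and less RNA per cell cannot be told apart. The 3′ to 5′ signal ratio of actin, a measure of RNA integrity, was 2.44 to 2.81 in homozygous and 1.96 to 2.69 in hemizygous tumors, against 4.36 to 9.14 in WT ganglia. The same ratio of Gapdh overlapped, at 2.77 to 3.61 in homozygous and 2.71 to 3.14 in hemizygous tumors, against 2.56 to 4.13 in WT ganglia. WT ganglia 1 and 2 also carried muscle RNA, with Acta1 at 1042 and 529. So did some tumors: hemizygous tumor 3 at 2390, homozygous tumor 2 at 437 and Mdk-knockout tumor 2 at 1052. The part of each of these in the differences of the enzymes was not tested.

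The second probe sets gave a partly different picture. For St8sia1 a second probe set rose by 0.86 in homozygous tumors (limma adjusted p = 0.00198) and by 1.18 in hemizygous tumors (limma adjusted p = 0.000101). It read 85.1, 72.3, 42 and 50 in hemizygous and 34.0, 41.8, 49.7 and 58.5 in homozygous tumors, against 16.5, 12.5, 18.6 and 24.4 in WT ganglia. The dimmest St8sia1 probe set, over the 40th percentile on 4 arrays, differed by -0.03 (adjusted p = 0.915) in homozygous and 0.36 (adjusted p = 0.21) in hemizygous tumors.

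For B4galnt1 a second, dimmer probe set rose by 0.93 in hemizygous tumors (limma adjusted p = 0.00252) and differed by 0.42 (adjusted p = 0.149) in homozygous tumors. For Ugcg 1 of 3 further probe sets rose in both, by 0.66 (adjusted p = 0.00183) in homozygous and 0.54 (adjusted p = 0.00759) in hemizygous tumors. For St3gal2 neither of the other probe sets rose with the brightest: the second differed by -0.21 (adjusted p = 0.374) in homozygous and -0.39 (adjusted p = 0.0997) in hemizygous tumors. Over the 20 arrays the brightest and second probe sets correlated at r = 0.723 for St8sia1, 0.717 for B4galnt1, 0.724 for Ugcg, 0.566 for St3gal5 and -0.0162 for St3gal2. The points share their arrays, and these values are descriptions. The rise of St3gal2 thus rests on 1 of its 3 probe sets.

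**Figure D3:**
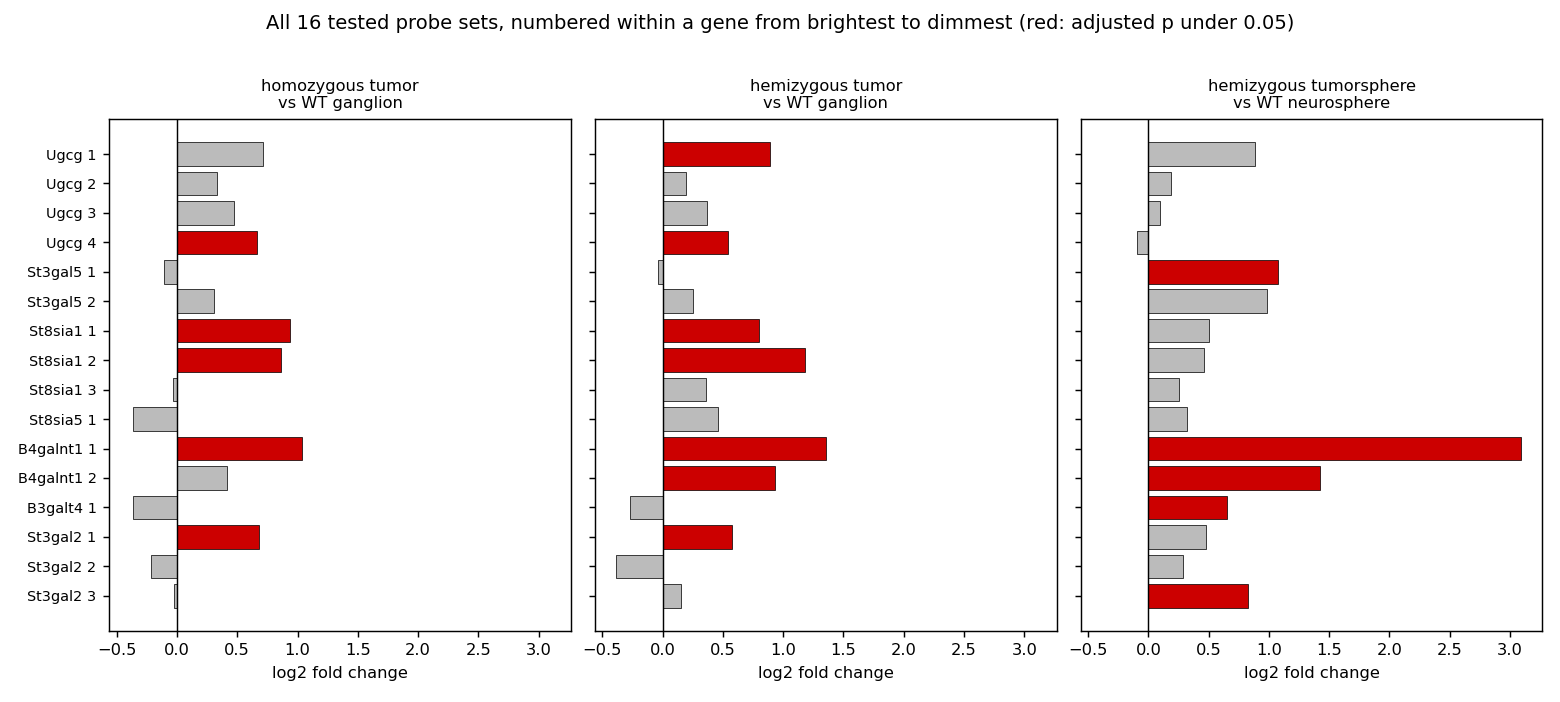
Log2 fold changes of all 16 tested probe sets in 3 comparisons, with the probe sets of a gene numbered from brightest to dimmest and those past an adjusted p of 0.05 in red. Both brighter St8sia1 probe sets were red against WT ganglia, and both B4galnt1 probe sets were red in tumorspheres against WT neurospheres. The brightest St3gal2 probe set and the second ran in opposite directions in tumors.

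In homozygous ganglia against WT ganglia, 0 of 7 genes were called in limma and 0 had an unadjusted p under 0.05, where 5.03% of all genes tested were called, 4% higher and 1.03% lower. B4galnt1 differed by 0.39 (95% interval -0.30 to 1.09), St8sia1 by 0.26 (-0.44 to 0.96) and Ugcg by -0.28 (-1.07 to 0.52). With WT ganglia 3 and 4 alone as controls, B4galnt1 rose by 0.90 (adjusted p = 0.0224) and Ugcg fell by 0.92 (adjusted p = 0.0437). That setting called 28.9% of all probe sets tested, so 2 of 7 is near the share over all.

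In homozygous tumors against homozygous ganglia, 0 of 7 genes were called, where 21.3% of all genes tested were (9.16% higher, 12.2% lower), and 2 had an unadjusted p under 0.05. These were Ugcg, at 0.99 (95% interval 0.20 to 1.79, adjusted p = 0.0754), and St3gal2, at 0.56 (0.09 to 1.03, adjusted p = 0.0877). St8sia1 differed by 0.68 (-0.02 to 1.37) and B4galnt1 by 0.64 (-0.05 to 1.34). For all 4 of these genes every tumor lay above both ganglia. How many of all genes separated in this way is not given here, so nothing particular follows for these enzymes. A fit on the 6 compared arrays alone called all 4, with adjusted p of 0.0139 for Ugcg, 0.0305 for St3gal2, 0.0146 for St8sia1 and 0.0232 for B4galnt1. That fit called 35% of all probe sets tested. The glial marker sum was 879 to 1137 in homozygous tumors and 7870.1 to 8113 in homozygous ganglia, and the sum of 4 fat markers was 519 to 935 in the tumors and 5356 to 5842 in the ganglia. The liver and plasma sum was 14.2 to 35.5 in the tumors and 1041 to 1162 in the ganglia, and the actin ratio was 2.44 to 2.81 in the tumors and 4.02 to 4.68 in the ganglia. Their part was not tested.

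Loss of Mdk was not accompanied by a called change in these enzymes. In Mdk-knockout tumors against homozygous tumors with Mdk intact, 0 of 7 genes were called in limma and 0 had an unadjusted p under 0.05, where 0.00661% of all genes tested were called, namely Mdk itself. B4galnt1 differed by 0.01 (95% interval -0.69 to 0.71), St8sia1 by 0.05 (-0.65 to 0.74), St3gal5 by 0.16 (-0.27 to 0.59) and St3gal2 by -0.27 (-0.73 to 0.20). The number of knockout tumors, 2, limits the precision.

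St8sia5 was the 1 gene called between tumors of hemizygous and of homozygous mice. In hemizygous tumors against homozygous tumors, 1 of 7 genes rose and 0 fell, where 5.97% of all genes tested were called, 3.32% higher and 2.66% lower. St8sia5 read 57.5, 41.4, 70.2 and 34.2 in hemizygous tumors, against 16.7, 16.3, 22.2 and 30.3 in homozygous tumors. St8sia5 differed by 0.82 ± 0.20 (log2, SE), or 1.77-fold (limma adjusted p = 0.023). It has 1 probe set here. Without the arrays with Acta1 over 100, here hemizygous tumor 3 and homozygous tumor 2, the difference was 0.62 (adjusted p = 0.126).

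The call on St8sia5 was lost when any of 5 arrays was left out: homozygous tumor 1 (0.76, adjusted p = 0.0818), 2 (0.76, adjusted p = 0.0761) or 3 (0.84, adjusted p = 0.0545), or hemizygous tumor 1 (0.77, adjusted p = 0.0668) or 3 (0.69, adjusted p = 0.0762). The summed signal of 10 macrophage markers was 1395 to 4333 in hemizygous and 1173 to 1827 in homozygous tumors. Endothelial markers summed to 264 to 444 in hemizygous and 123 to 143 in homozygous tumors, with 4 of 6 higher. Neuronal markers summed to 12056 to 14169 in hemizygous and 19214 to 21815 in homozygous tumors, with 5 of 15 lower. The part of these in the difference of St8sia5 was not tested. B4galnt1 differed by 0.31 (95% interval -0.25 to 0.88) and St8sia1 by -0.13 (-0.70 to 0.43) between the tumors.

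In tumorspheres against hemizygous tumors, 0 of 7 genes were called in limma, where 11.8% of all genes tested were (5.2% higher, 6.64% lower), and 1 had an unadjusted p under 0.05. That gene was B4galnt1, at 0.72 (95% interval 0.02 to 1.41, adjusted p = 0.208), with both cultures above all 4 tumors. St8sia1 differed by -0.37 (-1.07 to 0.32), with the 2 cultures far apart at 782 and 389.6. The summed macrophage markers were 61.5 to 105 in tumorspheres, against 1395 to 4333 in hemizygous tumors, and endothelial and fibroblast sums were also lower in culture. The fibroblast sum was 641 to 690 in tumorspheres, against 2672 to 6424 in hemizygous tumors, with 6 of 7 markers lower and 1 higher. The glial sum was higher in culture, at 1181 to 1295, against 454 to 944 in hemizygous tumors. B4galnt1, St8sia1, St3gal5 and Ugcg had signal in these cultures, and the cells it came from were not tested.

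In tumorspheres against WT neurospheres, 3 of 7 genes rose and 0 fell, where 37.8% of all genes tested were called, 23.1% higher and 14.7% lower. B4galnt1 rose by 3.10 ± 0.38 (log2, SE; limma adjusted p = 5.4e-06), St3gal5 by 1.07 ± 0.24 (limma adjusted p = 0.00177) and B3galt4 by 0.66 ± 0.22 (limma adjusted p = 0.0276). With a constant of 1 in place of 16 the value for B4galnt1 was 6.09, and with 64 it was 1.57, both called, so its size is not fixed by these data. Its second probe set rose by 1.42 (limma adjusted p = 0.0024), and the second St3gal5 probe set differed by 0.98 (adjusted p = 0.0681). B3galt4 averaged 13.4 in neurospheres, over the 40th percentile on 1 of 2 arrays, so the size of its folds against neurospheres also depends on the constant.

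The calls on B4galnt1 and St3gal5 passed in all 13 alternatives run. B3galt4 no longer passed without tumorsphere 1 (0.74, adjusted p = 0.0659), tumorsphere 2 (0.58, adjusted p = 0.155) or WT neurosphere 1 (0.60, adjusted p = 0.124). St8sia1 differed by 0.50 (95% interval -0.30 to 1.304), Ugcg by 0.88 (-0.03 to 1.80), St3gal2 by 0.48 (-0.06 to 1.02) and St8sia5 by 0.32 (-0.27 to 0.92). For Ugcg, St3gal2 and St8sia5, none of them called, both tumorspheres lay above both neurospheres. The share of all genes separated in this way is not given here, so nothing particular follows for these enzymes. The neuronal marker sum was 16048 to 16063 in tumorspheres, against 584 to 1095 in neurospheres. The actin 3′ to 5′ ratio was 2.64 and 2.34 in tumorspheres, against 7.77 and 3.78 in neurospheres 1 and 2. The Gapdh ratio was 3.13 and 2.68 in tumorspheres, against 3.37 and 11.5 in neurospheres 1 and 2, so the ratios differ on which neurosphere was the higher. The summed signal of 5 liver and plasma protein markers was 27.2 to 27.8 in tumorspheres, against 22.2 and 7031 in the 2 neurospheres. The part of lineage, RNA integrity and these proteins was not tested.

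**Figure D4:**
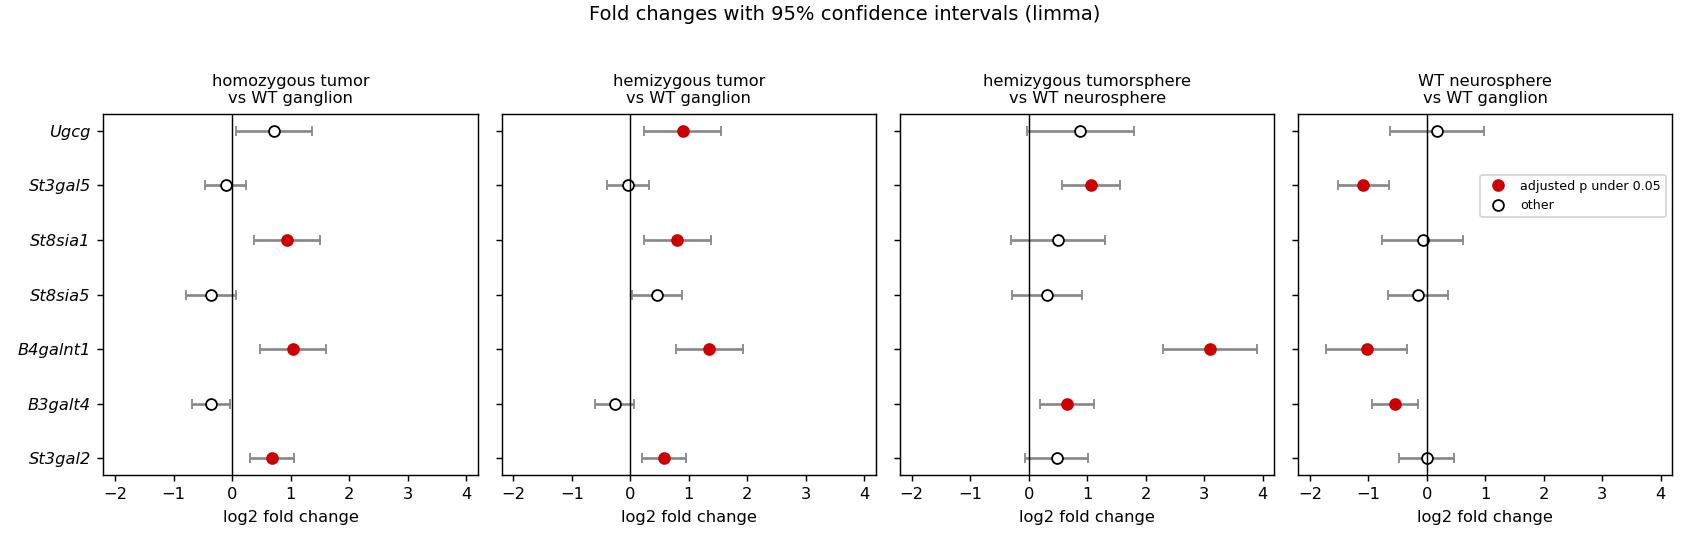
Log2 fold changes with 95% confidence intervals for the brightest probe set of the 7 tested genes in 4 comparisons, red where the adjusted p was under 0.05. St8sia1, B4galnt1 and St3gal2 were red in both kinds of tumor against WT ganglia, Ugcg in hemizygous tumors, and B4galnt1, St3gal5 and B3galt4 in tumorspheres against WT neurospheres.

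The wild-type cultures themselves differed from wild-type ganglia. In WT neurospheres against WT ganglia, 0 of 7 genes rose and 3 fell, where 38.8% of all genes tested were called, 16.7% higher and 22.2% lower. St3gal5 fell by 1.08 ± 0.21 (log2, SE; limma adjusted p = 0.000415), B4galnt1 by 1.03 ± 0.33 (limma adjusted p = 0.0219) and B3galt4 by 0.54 ± 0.19 (limma adjusted p = 0.0326). Of the 16 tested probe sets only these 3 fell, so the second probe sets of B4galnt1 and St3gal5 were not called. The second B4galnt1 probe set averaged 7.95 ± 9.27 in WT neurospheres (SD, n = 2) and 9.41 ± 9.92 in WT ganglia (SD, n = 4). The second St3gal5 probe set averaged 7.57 ± 7.09 and 27.4 ± 20.7 there. The brightest B4galnt1 probe set was under the 40th percentile on both neurosphere arrays, so the size of its fall depends on the constant. The call on St3gal5 passed in all 18 alternatives. Against WT ganglia 3 and 4 alone, B4galnt1 differed by -0.52 (adjusted p = 0.154) and B3galt4 by -0.56 (adjusted p = 0.0558). B4galnt1 no longer passed without WT ganglion 1 (-0.72, adjusted p = 0.0546), WT neurosphere 1 (-1.06, adjusted p = 0.0836) or WT neurosphere 2 (-1.0, adjusted p = 0.103). B3galt4 no longer passed without WT ganglion 2 (-0.53, adjusted p = 0.0518), WT ganglion 3 (-0.52, adjusted p = 0.0521), WT neurosphere 1 (-0.49, adjusted p = 0.15) or WT neurosphere 2 (-0.60, adjusted p = 0.0766).

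Whether the difference between transgenic and wild-type samples was the same in culture and in tissue was tested as the tumorsphere minus neurosphere difference less the hemizygous tumor minus WT ganglion difference, which share no array. It was above 0 for 3 of 7 genes and below 0 for 0, where 32.1% of all genes tested were called, 17.7% above and 14.5% below. B4galnt1 stood at 1.74 ± 0.47 (log2, SE; limma adjusted p = 0.00874), St3gal5 at 1.11 ± 0.29 (limma adjusted p = 0.00705) and B3galt4 at 0.93 ± 0.27 (limma adjusted p = 0.014). Of the 16 tested probe sets 3 were called, so the second probe sets of B4galnt1 and St3gal5 did not pass. The 3 genes called are those that were low in neurospheres. For B4galnt1, under the 40th percentile on both neurosphere arrays, the value was 3.87 with a constant of 1 and 0.88 with 64, so its size depends on the constant. St8sia1 stood at -0.30 (95% interval -1.29 to 0.68), St3gal2 at -0.10 (-0.76 to 0.57) and Ugcg at -0.01 (-1.13 to 1.12). B3galt4 no longer passed without tumorsphere 2 (0.85, adjusted p = 0.0712).

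Of the genes on other parts of the arrays, those most like B4galnt1 over the 20 arrays were Anapc2 (Pearson r = 0.974), Supt5 (0.97), Drg2 (0.964), Ydjc (0.962) and Dbnl (0.96). Within groups these correlations were 0.869, 0.812, 0.79, 0.832 and 0.834. Those most like St8sia1 were Ccdc137 (0.867), Prkar2a (0.841), Zmynd19 (0.83), Zfp512 (0.827) and Slc20a1 (0.826), with 0.628, 0.604, 0.672, 0.619 and 0.537 within groups. The arrays share groups and RNA quality, and the values are descriptions. Among the enzymes the closest pairs were B4galnt1 with St3gal2 (0.737), St8sia1 with St3gal2 (0.61) and Ugcg with St8sia1 (0.609). Within groups these were 0.583, 0.0672 and 0.47, and the closest pair there was Ugcg with St8sia5 (0.632).

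The pathway around the 8 enzymes was followed in 5 lists: supply of ceramide and lactosylceramide, supply of CMP-sialic acid, other sialyltransferases, glycolipid breakdown, and branches that compete for the same precursors. They list 19, 8, 16, 16 and 14 genes, of which 16, 7, 16, 12 and 13 were tested, in that order. In homozygous tumors against WT ganglia, where 49.9% of all genes were called, 3 genes of the ceramide and lactosylceramide list rose and 3 fell of 16 tested, with a median of -0.27 against -0.12 over all genes. B4galt5, a lactosylceramide synthase, averaged 89.5 ± 7.08 in homozygous tumors and 41.6 ± 9.11 in WT ganglia (SD, n = 4 each) and rose by 0.88 (limma adjusted p = 0.000205). Degs1, the desaturase of the last step to ceramide, averaged 865 ± 114 in homozygous tumors and 2308 ± 111 in WT ganglia (SD, n = 4 each) and fell by 1.41 (limma adjusted p = 1.07e-07). Sptssa, a small subunit of serine palmitoyltransferase, fell by 1.07 (adjusted p = 0.000768).

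Of the CMP-sialic acid list, 1 rose and 3 fell of 7 tested, with a median of -0.54. Cmas, which activates sialic acid, fell by 0.78 (adjusted p = 0.00251), Cmah, which converts it to the glycolyl form, fell by 0.84 (adjusted p = 0.00813), and Nanp, a phosphatase of sialic acid synthesis, rose by 0.56 (adjusted p = 0.0121). Slc35a2, a UDP-galactose transporter kept on this list, was the other gene that fell. Against WT ganglia 1 and 2 alone Nanp differed by 0.24 (adjusted p = 0.208) and Cmas by -0.44 (adjusted p = 0.0664). Slc35a2 differed by 0.24 (limma adjusted p = 0.362) against that pair and by -3.49 (limma adjusted p = 1.8e-10) against 3 and 4 alone. Over the list 0 rose and 2 fell against WT ganglia 1 and 2 alone, and 1 rose and 4 fell against 3 and 4 alone.

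Of 16 other sialyltransferases, 2 rose and 5 fell, with a median of -0.19. St6galnac5, which makes alpha-series gangliosides, averaged 45.3 ± 7.26 in homozygous tumors and 1341 ± 764 in WT ganglia (SD, n = 4 each) and fell by 4.28 (adjusted p = 6.49e-09). St8sia4, a polysialyltransferase of neural cell adhesion molecule, fell by 2.62 (adjusted p = 2.99e-05). St6gal2, which acts on N-glycans, rose by 1.95 (adjusted p = 2.66e-05).

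Of 12 genes of glycolipid breakdown, 2 rose and 5 fell, with a median of -0.20. Gba2, the non-lysosomal glucosylceramidase, averaged 157 ± 13.9 in homozygous tumors and 45.9 ± 21.2 in WT ganglia (SD, n = 4 each) and rose by 1.53 (adjusted p = 0.000102). Gm2a, the activator protein of GM2 hydrolysis, fell by 1.20 (adjusted p = 0.000329), and Asah1, acid ceramidase, fell by 0.82 (adjusted p = 8.74e-05). Against WT ganglia 1 and 2 alone 1 rose and 6 fell, and against 3 and 4 alone 4 rose and 4 fell.

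Of 13 genes of competing branches, 4 rose and 5 fell, with a median of -0.19. Both sphingomyelin synthases, which draw on the same ceramide as Ugcg, were lower. Sgms2 fell by 3.06 (adjusted p = 1.5e-07) and Sgms1 fell by 2.095 (adjusted p = 4.31e-06). Fut9, a fucosyltransferase that makes the Lewis x structure, averaged 188 ± 31.9 in homozygous tumors and 8.32 ± 2.46 in WT ganglia (SD, n = 4 each) and rose by 3.06 (adjusted p = 2.83e-07). Against WT ganglia 1 and 2 alone 2 rose and 5 fell. Glial markers, which include those of myelin-forming cells, fell in 9 of 10 cases in the same comparison, and their part in the falls of these lists was not tested.

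In hemizygous tumors against WT ganglia, where 26.9% of all genes tested were higher and 25.5% lower, the counts were 2 higher and 5 lower of 16 for ceramide and lactosylceramide, 1 and 2 of 7 for CMP-sialic acid, 3 and 5 of 16 for other sialyltransferases, 4 and 3 of 12 for breakdown, and 2 and 5 of 13 for competing branches. B4galt5 rose by 1.44 (limma adjusted p = 7.64e-07) and Gba2 by 2.08 (adjusted p = 3.05e-06). Ctsa, which protects lysosomal sialidase, rose by 1.38 (adjusted p = 0.000258), and Neu1, that sialidase, by 1.0 (adjusted p = 0.00183). Against WT ganglia 1 and 2 alone Neu1 differed by 0.53 (adjusted p = 0.0611). St6galnac5 fell by 4.31 (adjusted p = 4.36e-09) and Sgms2 by 3.42 (adjusted p = 2.84e-08). The breakdown counts were 3 higher and 5 lower against WT ganglia 1 and 2 alone, and 5 higher and 1 lower against 3 and 4 alone. Summed macrophage markers, from cells rich in lysosomes, were 1395 to 4333 in hemizygous tumors and 998 to 2195 in WT ganglia, and their part was not tested.

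In tumorspheres against WT neurospheres, where 23.1% of all genes tested were higher and 14.7% lower, the counts were 3 higher and 4 lower of 16 for ceramide and lactosylceramide, 3 and 0 of 7 for CMP-sialic acid, 5 and 5 of 16 for other sialyltransferases, 4 and 4 of 12 for breakdown, and 1 and 3 of 13 for competing branches. B4galt5 averaged 226 ± 34.8 in tumorspheres and 29.1 ± 7.62 in WT neurospheres (SD, n = 2 each) and rose by 2.43 (limma adjusted p = 2.23e-07). Of the sialic acid genes, Gne, which starts its synthesis, rose by 1.19 (adjusted p = 0.00344), Cmas by 1.04 (adjusted p = 0.00585) and Nanp by 0.65 (adjusted p = 0.0472). St8sia2, a polysialyltransferase, rose by 2.35 (adjusted p = 0.000133), and St6galnac5 fell by 2.16 (adjusted p = 0.00126). Asah1 fell by 1.75 (adjusted p = 1.65e-06).

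**Figure D5:**
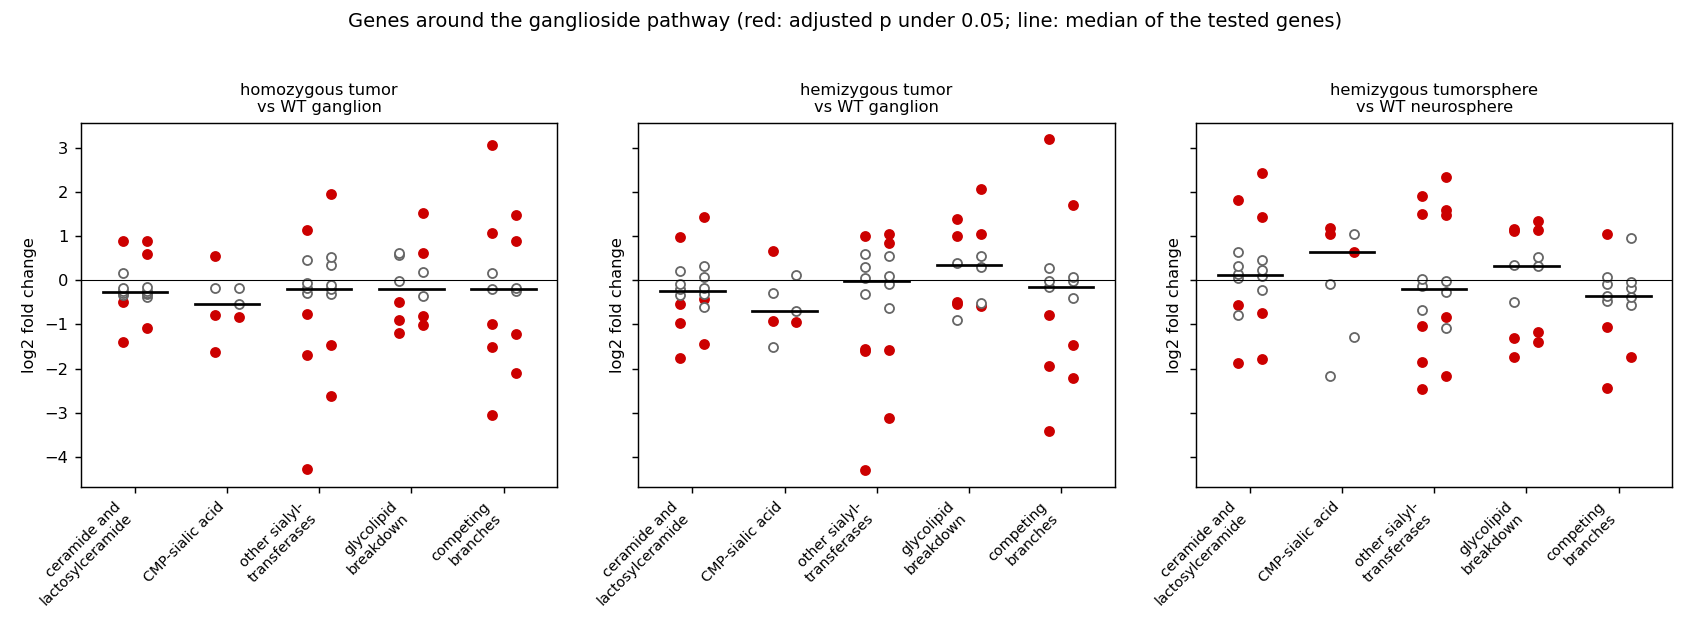
Log2 fold changes of the tested genes of 5 pathway lists in 3 comparisons, red where the adjusted p was under 0.05, with list medians as lines. Every list but CMP-sialic acid in tumorspheres against WT neurospheres held red genes on both sides of 0.

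In hemizygous against homozygous tumors, where 5.97% of all genes tested were called, 1 of 16 genes was called in the ceramide and lactosylceramide list, 0 of 7 in CMP-sialic acid, 2 of 16 in other sialyltransferases, 1 of 12 in breakdown and 0 of 13 in competing branches. St6galnac4, a sialyltransferase of gangliosides and O-glycans, averaged 50.3 ± 17.0 in hemizygous and 14.1 ± 3.94 in homozygous tumors (SD, n = 4 each) and rose by 1.11 (limma adjusted p = 0.00422). Gla, the lysosomal alpha-galactosidase, rose by 0.67 (adjusted p = 0.0355). St6gal2 fell by 1.39 (adjusted p = 0.00918) and Sptlc2, a subunit of serine palmitoyltransferase, by 0.65 (adjusted p = 0.0486). Without the arrays with Acta1 over 100, St6galnac4 stood at 0.96 (adjusted p = 0.0567), St6gal2 at -1.31 (adjusted p = 0.0587) and Gla at 0.59 (adjusted p = 0.148), while Sptlc2 still passed. In Mdk-knockout against homozygous tumors, 0 list genes were called in limma, and 1, the ceramide synthase Cers6, had an unadjusted p under 0.05.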

How the data were processed

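The data are 20 Affymetrix Mouse Genome 430 2.0 arrays. Per the labels' protocols, 40 ng of total RNA went through 2 amplification cycles. The authors deposited linear intensities per probe set, and the 2%-trimmed mean of each array was 100.001, so the authors had scaled the arrays. For the summarizing software, the name was not given in the sources used here.

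Of 45101 probe sets, 64 controls were left out. The platform annotation gave 1 symbol for 34945, several for 932 and none for 9160, and 34741 symbols were updated by gene identifier (GRCm38.p6). Values were taken as log2(intensity + 16) without further normalization (array medians spanned 0.334), which understates changes of low genes. Probe sets above the 40th percentile of their array on at least 2 arrays were tested, 34922 in all, which hold 15139 genes.

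One model with 7 group means over the 20 arrays was fitted (limma 3.58.1, R 4.3.3, with eBayes; residual degrees of freedom 13), with 10 two-sided contrasts and the difference between culture and tissue. It was tested on simulated data, with changes set in a small part of the probe sets. Depending on the comparison, 18% to 52% of log2 changes of 1 and 55% to 87% of changes of 2 were recovered. Of the calls, 2.82% to 9.93% were false. A gene that was not called can therefore still differ. The brightest probe set stands for its gene. The number of arrays limits the precision. No 2 arrays held matching values (highest correlation 0.9897).

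The members, the lists, the markers and the rules were chosen with earlier results of these data known. All member genes are named. Called list genes that are named are among the 3 with the smallest p in that list and comparison, apart from Slc35a2. The 5 genes most like B4galnt1 and St8sia1 are those with the highest Pearson r. Alternatives were quantile normalization, median centring, constants of 1 and 64, other filters, a replicate block, WT ganglia in pairs, arrays without Acta1 over 100, the compared arrays only, and each array left out. Promoters of 5 genes were read from RefSeq.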

Additional observations from a re-analysis of the deposited data

Results flagged for a closer look

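The difference between transgenic and wild-type samples was not the same in culture and in tissue for 3 enzymes, by a test of the difference itself in limma. In culture it stood above its value in tissue by 1.74 for B4galnt1 (adjusted p = 0.00874), by 1.11 for St3gal5 (adjusted p = 0.00705) and by 0.93 for B3galt4 (adjusted p = 0.014) on the log2 scale. In tissue B4galnt1 was called higher, while St3gal5 and B3galt4 stood below 0 and were not called. The size for B4galnt1 depends on the constant added before the logarithm (3.87 with 1, 0.88 with 64), since both neurosphere arrays were under the 40th percentile. Of all genes tested 32.1% were called in this test, 17.7% above 0 and 14.5% below, beside 3 of 7 enzymes. These calls rest on the brightest probe sets, and the second probe sets of B4galnt1 and St3gal5 did not pass. The call on B3galt4 did not hold in every setting, as given above. Lineage markers differ between the wild-type cultures and ganglia as well, and their part was not tested.

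One array stood far from the rest of its group. A dim Ugcg probe set read 22.9 in WT ganglion 3, against 5.60, 4.57 and 4.49 in the other WT ganglia. It was 1 of 48 groups of 4 arrays examined, and chance puts about 1 group in 20 past this limit.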

How the results depend on the processing

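Each count of called enzymes (of 7 tested) was recomputed under every alternative, and no member's direction was reversed among those called. In hemizygous tumors against WT ganglia 4 were called, where 47.4% of all probe sets tested were. The count was 2 with quantile normalization (46.7% over all) and 2 without WT ganglia 1 and 2 (52% over all). It was 2 without arrays with Acta1 over 100 (46.8% over all) and 1 with the compared arrays only (38.4% over all). With single arrays left out it was 2 to 5. In Mdk-knockout tumors against WT ganglia 2 were called, against 1 without the Acta1 arrays, 0 with the compared arrays only and 0 to 3 with single arrays left out. In WT neurospheres against WT ganglia 3 were called, against 1 without WT ganglia 1 and 2, 1 without the Acta1 arrays, 1 with the compared arrays only and 1 to 3 with single arrays left out. Among these compared arrays, the Acta1 setting leaves out the same ones as the setting without WT ganglia 1 and 2. In hemizygous against homozygous tumors 1 was called, against 0 without the Acta1 arrays and 0 to 1 with single arrays left out. In homozygous ganglia against WT ganglia 0 were called, against 2 without WT ganglia 1 and 2, where calls over all probe sets went up to 28.9% against 4.34%. In homozygous tumors against homozygous ganglia 0 were called, against 4 with the compared arrays only, where all calls were 35% against 18.8%. In WT neurospheres against WT ganglia the share over all probe sets was 34.4%. It was 36.3% without WT ganglia 1 and 2, 32.3% without the Acta1 arrays and 15.3% with the compared arrays only. With the compared arrays only it went from 35.4% to 21.2% in Mdk-knockout tumors against WT ganglia. Without the Acta1 arrays it went from 5.12% to 3.61% in hemizygous against homozygous tumors. The causes were not tested, and a change with fewer arrays can come from the smaller number alone. With single arrays left out, 3 to 4 were called in homozygous tumors against WT ganglia, 2 to 3 in tumorspheres against WT neurospheres and 2 to 3 in the difference between culture and tissue.

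Same-numbered arrays of compared groups deviated together with correlations between -0.325 and 0.283, and the labels do not say that a number pairs samples. With the replicate number as a block, 1 enzyme in place of 2 was called in Mdk-knockout tumors against WT ganglia, 4 in place of 3 in homozygous tumors against WT ganglia, and 2 in place of 3 in WT neurospheres against WT ganglia. The block left the other 8 counts as they were. Counts of list genes against pairs of WT ganglia were added after seeing the data.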
